A study of Mus musculus with 81 samples.

Results

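The sites described here are 17626 stretches of mouse embryonic stem (ES) cell chromatin that were called open in the bulk peak list 9h into their conversion towards epiblast-like cells (EpiLC). They overlapped no peak of the bulk list at 0h and no peak of the bulk list at 48h by as little as 1 bp. They made up 11.4% of the 154758 peaks of the 9h bulk list. Of the other 9h peaks, 89020 were also found at 0h and 48h (kept), 35330 were shared with 0h but not with 48h (lost after 9h), and 12782 were shared with 48h but not with 0h (gained by 9h and kept). The sites were chosen by presence in the 9h bulk list and absence from the 0h and 48h bulk lists, so their bulk scores are a description and carry no test. The word only refers to those lists: 331 of the sites overlapped a peak of the 0h mature list and 504 one of the 48h mature list (chromatin 2 h after copying), and 33 and 119 overlapped nascent peaks (chromatin just copied) at those times.

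Accessibility was measured by ATAC-seq, in which a transposase inserts adapters into open DNA, and by repli-ATAC-seq, which keeps only fragments of DNA copied during a short pulse of the nucleotide analogue EdU. Wild-type ES cells of the line labelled 129/Ola were grown in serum-free N2B27 medium with LIF, a GSK3 inhibitor and a MEK inhibitor. The MEK inhibitor was replaced by an FGF receptor inhibitor on the day before induction (0h). The cells were then plated on fibronectin with 10 ng/mL FGF2 and 20 ng/mL Activin A for 9h or 48h. EdU was given at 20 µM for 10 min, and cells were collected at once (nascent) or 2 h after the label, following a chase in 10 µM thymidine (mature). The bulk samples are the DNA left unbound when labelled fragments were captured. Bulk and mature fragments of a time point may therefore share cells, and the labels do not say which capture gave the ES bulk samples. Each of these 9 groups had 3 samples and 1 deposited peak list. Fibroblasts (MEF) of a Black6-129X1/SvJ background served as the other cell type in which the sites could be looked up. They were heterozygous for Col1a1::tetOP-OKSM, R26-M2rtTA and Oct4GFP, so that doxycycline at 2 µg/mL switched on the reprogramming factors. Lists existed at 6h, 12h and 36h of doxycycline, and at 60h for 4 fractions (Q1 to Q4) sorted by CellTrace Violet, a dye diluted with each division. In a separate experiment aphidicolin at 5 µg/mL was added 4 h after induction for 10 h, beside untreated MEF harvested at the same time, with 3 samples in each group. No list of MEF without doxycycline was used here.

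ES cells in these inhibitors resemble the naive epiblast of the early embryo. Withdrawal of the inhibitors together with FGF and Activin moves them to the formative state of EpiLC, in which naive factors such as Esrrb and Tbx3 are switched off and Otx2 takes over many enhancers. Enhancers are short stretches of open DNA bound by transcription factors, and they are often far from gene starts and open in only some cell states. Every passage of a replication fork removes nucleosomes and bound factors, and openness has to be set up again on both copies.

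Few of the sites lay at annotated gene starts. Of the 17013 sites on chromosomes with such entries, 172 (1.01%) touched a window of 250 bases before to 50 bases after a start in RefSeq (GRCm38.p6, the assembly behind mm10). They touched 201 of 32817 such windows. These windows had a median GC content of 49.0% and a median of 5 CpG dinucleotides, against 61.3% and 20 in the 16163 windows touched by kept peaks and 46.3% and 3 in the 15740 windows with no 9h bulk peak. The sequences below are the upstream bases covered by a site at protein-coding gene starts. They are shown because these are the sites whose sequence RefSeq gives and that had a mature peak at 9h and at neither other time. They are the 5 with the highest 9h bulk score among 11 genes that met these terms with at least 100 upstream bases covered, a choice made after the values were seen. Each runs 5′ to 3′ on the strand of the gene, in lower case, with matches to the motifs searched in capitals.
Slc29a1 upstream: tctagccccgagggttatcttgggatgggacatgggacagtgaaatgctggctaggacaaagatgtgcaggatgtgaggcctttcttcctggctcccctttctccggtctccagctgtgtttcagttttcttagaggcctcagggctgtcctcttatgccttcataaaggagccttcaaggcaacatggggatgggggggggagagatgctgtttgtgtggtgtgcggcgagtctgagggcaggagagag
Spn upstream: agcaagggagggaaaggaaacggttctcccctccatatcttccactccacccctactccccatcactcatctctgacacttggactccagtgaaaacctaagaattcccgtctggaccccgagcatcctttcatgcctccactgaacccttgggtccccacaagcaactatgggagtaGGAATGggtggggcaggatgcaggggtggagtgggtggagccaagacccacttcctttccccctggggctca
Serpind1 upstream: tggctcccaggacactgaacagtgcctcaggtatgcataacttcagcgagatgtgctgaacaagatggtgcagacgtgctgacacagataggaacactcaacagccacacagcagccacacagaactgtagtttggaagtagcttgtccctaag
Alpl upstream: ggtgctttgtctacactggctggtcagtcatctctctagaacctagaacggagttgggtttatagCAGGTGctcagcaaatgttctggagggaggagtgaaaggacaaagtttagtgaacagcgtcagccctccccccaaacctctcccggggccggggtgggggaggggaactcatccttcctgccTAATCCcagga
Apom upstream: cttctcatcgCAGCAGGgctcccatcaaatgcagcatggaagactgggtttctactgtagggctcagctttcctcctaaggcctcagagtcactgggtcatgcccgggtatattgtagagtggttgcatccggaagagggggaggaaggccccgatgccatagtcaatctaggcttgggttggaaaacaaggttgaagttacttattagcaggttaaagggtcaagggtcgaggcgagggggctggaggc

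Slc29a1 encodes a nucleoside transporter, and its site spans chr17:45596101-45596759 (mm10) with a 9h bulk score of 798 and a 9h mature score of 462. The upstream bases shown, chr17:45596128-45596377 on the minus strand, hold none of the motifs. Spn encodes the leukocyte sialoprotein CD43. Its site (chr7:127137794-127138247) scored 203, with a 9h mature score of 54, and the bases shown (chr7:127137824-127138073, minus strand) hold a TEAD match. Serpind1 encodes the liver protease inhibitor heparin cofactor II. Its site (chr16:17330917-17331274) scored 193, with a 9h mature score of 111, and the bases shown (chr16:17331121-17331274, plus strand) hold no match. Alpl encodes tissue-nonspecific alkaline phosphatase, the enzyme used as a stain for pluripotent cells. Its site (chr4:137766528-137767043) scored 171, with a 9h mature score of 164, and the bases shown (chr4:137766528-137766725, minus strand) hold an OTX match and a SNAI and ZEB E-box. Apom encodes apolipoprotein M. Its site (chr17:35131798-35132100) scored 163, with a 9h mature score of 90, and the bases shown (chr17:35131802-35132051, minus strand) hold a ZIC match. The Slc29a1 site began 145 bp from a 0h or 48h bulk peak, and its 9h mature peak reached that peak too. The mature peaks at the other 4 starts overlapped no 0h or 48h bulk peak.

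In all, 26 motifs were searched on both strands of the promoter windows, and the share of windows with a match is given for the 201 windows at the sites, then for all 32817. The TEAD element GGAATG was in 21.9% (44 windows, Wilson 95% interval 16.7 to 28.1%) against 14.7%, the AP-1 element TGANTCA in 11.9% (24 windows, 8.16 to 17.2%) against 7.81%, and the SOX element ACAATGG in 6.97% (14 windows, 4.19 to 11.4%) against 3.67%. In windows with no 9h bulk peak, which are closer in GC content, these shares were 17.1%, 10.8% and 5.17%, each inside the interval of the sites. The 201 windows belong to 176 gene symbols, and some overlap each other. The intervals therefore count some sequence more than once and are too narrow to that extent. The SP element GGGGCGGGG was in 0 windows against 11.4%, which allows a share of up to 1.88%, and the SMAD element GGCGCC was in 2.49% against 11.9%. Both are GC-rich, and windows with no 9h bulk peak held them in 1.85% and 1.65%. The E-box of SNAI and ZEB, CACCTG, was in 12.4% against 20.2%. OTX (TAATCC) was in 9.45% against 7.06%, ZIC (CAGCAGG) in 12.4% against 10.5%, NFY (CCAATCA) in 7.46% against 7.80%, KLF (GGGNGTGGC) in 5.97% against 5.76% and FOX (TGTTTAC) in 3.98% against 3.65%. T-box (AGGTGTGA) and the CArG box of SRF were each in 2.99%, against 1.27% and 1.63%. GRHL (AACNGGTT) and the element bound by GATA factors, spelled AGATAAG here, were each in 2.49%, against 2.08% and 3.05%. The POU octamer ATGCAAAT was in 1.99% against 1.74%, ETS (CCGGAAGT) in 1.49% against 3.89%, and CTCF in 1.49% against 2.73%. CRE (TGACGTCA) and TCF/LEF (ATCAAAG) were each in 0.995%, against 1.79% and 3.73%. ESRRB (TCAAGGTCA), STAT (TTCCNGGAA) and EGR (GCGTGGGCG) were each in 0.498%, against 0.424%, 1.15% and 0.612%. The SOX-POU composite, TFCP2L1 and NRF1 motifs were in 0 windows, against 0.149%, 0.165% and 0.966%. Short patterns overlap: the octamer and the composite share letters, and so do KLF and SP. These windows hold 1.01% of the sites and say nothing of the rest.

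The sites were weak among 9h bulk peaks, and narrower than kept peaks. Their median score, the peak caller's own number with a lowest value of 30, was 106.5, against 629 for kept peaks, 185 for peaks lost after 9h and 150 for peaks gained by 9h and kept. Their median width was 217 bp against 493 bp for kept peaks, but 225 bp for peaks gained by 9h and kept and 190 bp for peaks found only in the 48h bulk list. Together they covered 4394457 bp. Scores ran up to 2262, and 419 sites scored 500 or more, whereas 46.7% scored under 100. In the lowest score class, 30 to under 50, the sites were 41.1% of all 9h bulk peaks, and in the class of 500 or more they were 0.714%. At the edge of the rule, 89 sites lay within 50 bp of a 0h or 48h bulk peak and had a median score of 55. The 246 peaks left out for an overlap of 1 to 50 bp had a median score of 55.5. The median gap from a site to the nearest 0h or 48h bulk peak was 2127.5 bp, and 574 sites were at least 20 kb from any. The sites lay on every chromosome, at 10.4% of the 9h peaks of chromosomes X and 17 up to 12.3% on chromosome 5.

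Most sites lay away from gene ends. Inside protein-coding gene models lay 53.8% of them, 33.4% were more than 10 kb from any such gene, and 16.4% more than 50 kb. Of all sites, 839 lay at most 1 kb from a gene's start or end, 4.76% (95% interval 4.46 to 5.08%). That share was 19.3% in kept peaks, 5.94% in peaks gained by 9h and kept, and 4.58% in peaks lost after 9h. Among peaks scoring from 100 to under 150 it was 4.16% at the sites and 9.70% at kept peaks, so the gap to kept peaks was also there at matched scores.

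Mature chromatin was not used to choose the sites, and it was called open at them mainly at 9h. A 9h mature peak overlapped 4784 sites (27.1%, Wilson 95% interval 26.5 to 27.8%). The 0h mature list overlapped 1.88% (1.69 to 2.09%) and the 48h mature list 2.86% (2.62 to 3.12%). Neither interval comes near that of 9h, but with 1 list per group these intervals cover counting error only and the difference between times was not tested over samples. The 9h mature list is also the longest, with 94946 peaks against 66518 at 0h and 75941 at 48h. With each list cut to its 66518 highest scores, the shares were 1.88% at 0h, 11.9% at 9h and 1.70% at 48h. Counting only mature peaks that overlapped no 0h or 48h bulk peak, they were 1.45%, 24.0% and 2.59%. In all, 4228 sites (24.0%) had a mature peak at 9h and none at 0h or 48h. The same held for 21.1% of peaks lost after 9h, so it was not particular to the sites. It held for 13.4% of peaks gained by 9h and kept and for 9.49% of kept peaks.

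The share with a 9h mature peak followed the bulk score, as the plot of mature peaks by class and score shows. It was 10.0% for scores of 30 to under 50, 26.4% for 100 to under 150, 51.3% for 250 to under 500 and 78.5% for 500 or more. The 0h and 48h shares of the same score classes went no higher than 3.82% and 5.49%. Kept peaks with scores of 500 or more had a 9h mature peak in 93.0%, and peaks gained by 9h and kept in 60.1%. Over all scores, peaks gained by 9h and kept had mature peaks in 2.06% at 0h, 27.3% at 9h and 31.3% at 48h. Peaks lost after 9h had them in 36.4%, 48.1% and 4.08%. The sites had the low 0h value of the former and the low 48h value of the latter. The sites and the former were chosen for having no 0h bulk peak, and the sites and the latter for having no 48h bulk peak. Low mature shares at those times are therefore no separate support for the choice.

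**Figure D1:**
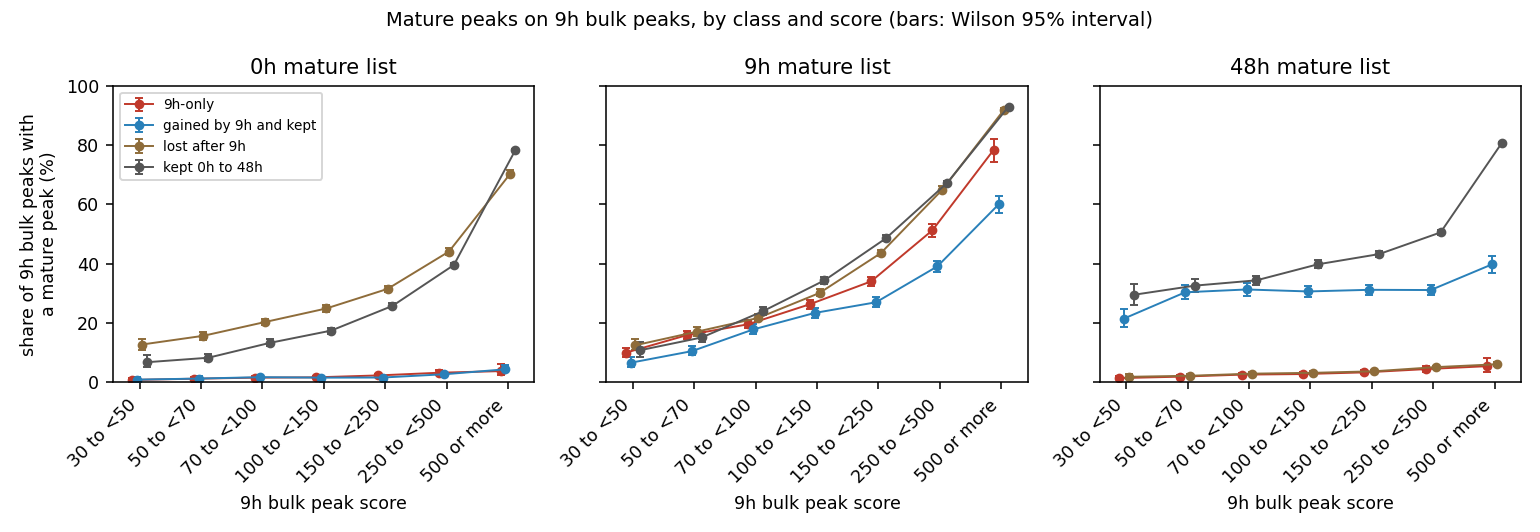
Share of 9h bulk peaks (%) that overlapped a peak of the 0h, 9h or 48h mature list (panels), by the score of the 9h bulk peak, for 4 classes of 9h bulk peak. Points are shares and bars Wilson 95% intervals, which cover counting error only; the 9h-only sites rise from 10.0% to 78.5% in the 9h list and stay at or under 5.49% in the others.

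The same comparison can be made for sites seen in another bulk list alone. Of 26566 peaks found only in the 0h bulk list, 10.8% had a 0h mature peak. Of 40231 peaks found only in the 48h bulk list, 18.4% had a 48h mature peak, or 14.6% with the mature lists at equal length. The value of 11.9% for the 9h sites at equal length lies between the others. Median bulk scores, each on the scale of its own list, were 106.5 for the 9h sites and 150 and 159 for the 0h and 48h sets. They are not compared. Score scales of separate lists need not be alike.

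Nascent chromatin was rarely called open at the sites. A 9h nascent peak overlapped 92 of them (0.522%, 0.426 to 0.640%), a 0h nascent peak 33 and a 48h nascent peak 119. The 9h nascent list holds 18587 peaks, and 19.4% of kept 9h peaks had one. The share was 2.08% in peaks lost after 9h and 0.602% (0.482 to 0.752%) in peaks gained by 9h and kept. A low nascent share was therefore not particular to the sites, and these shares are not matched for score. Both sites with the highest 9h nascent scores also had mature peaks at 0h and 48h. A site 123951 bp from Fgf14 (chr14:124801637-124801873) had nascent scores of 6605, 3108 and 3630 at 0h, 9h and 48h. Its mature scores were 1032, 500 and 192. A site on chromosome Y nearest to Gm52481 (chrY:90805544-90805890) had mature scores of 4713, 10144 and 6311. Both bulk peaks were modest, at 305 and 233. A site in Rbpj (chr5:53577267-53577493) had a nascent score of 152 at 9h and no nascent or mature peak at 0h or 48h, beside a 9h mature score of 104.

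The 10 sites with the highest bulk score each had a 9h mature peak and no mature peak at 0h or 48h. The strongest (chr4:146459178-146459463) lay inside Zfp992, a zinc-finger gene, with a bulk score of 2262 and a mature score of 1019. It was 954 bp from the nearest 0h or 48h bulk peak, and no MEF bulk list held it. A site inside Pcnx2 (chr8:125777489-125778041) scored 2068 in bulk and 244 in mature chromatin. A site 988 bp from Ap1s1, which encodes a clathrin adaptor subunit (chr5:137047096-137047276), scored 1804 and 810. That mature peak also overlapped a 0h or 48h bulk peak, and the nearest such bulk peak lay 488 bp from the site. A site inside Ect2, a gene needed for cytokinesis (chr3:27122931-27123298), scored 1756 and 907, and it was also open in all 6 MEF bulk lists, at 276, 2267 and 3814 at 6h, 12h and 36h. A site 367262 bp from Gm4868 (chr5:126217223-126218027) scored 1737 and 704 and was 12582 bp from any 0h or 48h bulk peak. A site 1578 bp from Dtd1 (chr2:144598050-144598375) scored 1574 and 873. A site 32249 bp from Zfp516 (chr18:82877105-82877439) scored 1431 and 296, and one 3497 bp from Rbpj (chr5:53551844-53552282) scored 1424 and 573. A site inside Ptpn14, a phosphatase that binds YAP (chr1:189779106-189779558), scored 1407 and 481. A site inside Zfp493 (chr13:67786181-67787148) scored 1378 and 982, with a 9h nascent score of 99. Of the 10, 7 were in no MEF bulk list. Many but not all Zfp genes lie in clusters of near-identical copies. For sites in such clusters, which copy the reads came from is uncertain and was not tested. Of the 419 sites with scores of 500 or more, 2.63% were nearest to a gene named Zfp with a number, against 1.88% of other 9h peaks in that score range.

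Ranking sites by the 9h mature score picks out a different kind. The 10 highest, among sites with no 0h or 48h mature peak, had mature scores of 1450 to 3373 but bulk scores of 43 to 326. Each lay 177 to 716 bp from a 0h or 48h bulk peak that the same wide mature peak also covered. The highest of them lay 892 bp from Atp5g1, a subunit of ATP synthase (chr11:96076586-96076744), with a bulk score of 72 and a mature score of 3373. With mature peaks that touched no 0h or 48h bulk peak, a condition added after the values were seen, the leading sites were those of Zfp992, Zfp493, Axin1, Ect2 and Dtd1. The Axin1 site (chr17:26178585-26179038) lies inside the gene for a scaffold of the complex that degrades beta-catenin. It had a bulk score of 1130, a 9h mature score of 938 and MEF bulk scores of 4032, 6222 and 1518.

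The locus with the most sites was Rbpj, which encodes the DNA-binding partner through which Notch receptors act on their targets. Within the gene (chr5:53555779-53657445) and 50 kb on each side lay 33 sites, 47.8% of the 69 bulk peaks there at 9h. The same interval held 32 bulk peaks at 0h and 26 at 48h. Mature peaks numbered 17, 38 and 12 at 0h, 9h and 48h, and nascent peaks 8, 11 and 5. Of the 33 sites, 12 had a 9h mature peak and 0 had a 0h or 48h mature peak. The map of the Rbpj locus shows them on both sides of the gene start and along the gene body. Their median score was 102, and the highest were 1424 (above), 939 at chr5:53554316-53554508 and 535 at chr5:53668145-53668517. By windows of 200 kb, the sites were 21 of 47 and 19 of 40 bulk peaks in the windows that hold the gene. They were 11 of 34 in the window before these and 2 of 13 in the window after. Genes of the Notch pathway, a list chosen after this locus was seen, held few sites otherwise: 14 of 179 9h bulk peaks (7.82%) within 50 kb of 19 other genes, including 2 each at Notch1, Notch2 and Jag1 and 0 at Hes1, Dll1 and Dll4. Rbpj is one of 21887 protein-coding genes scanned, chosen as the highest, and its count is a description.

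**Figure D2:**
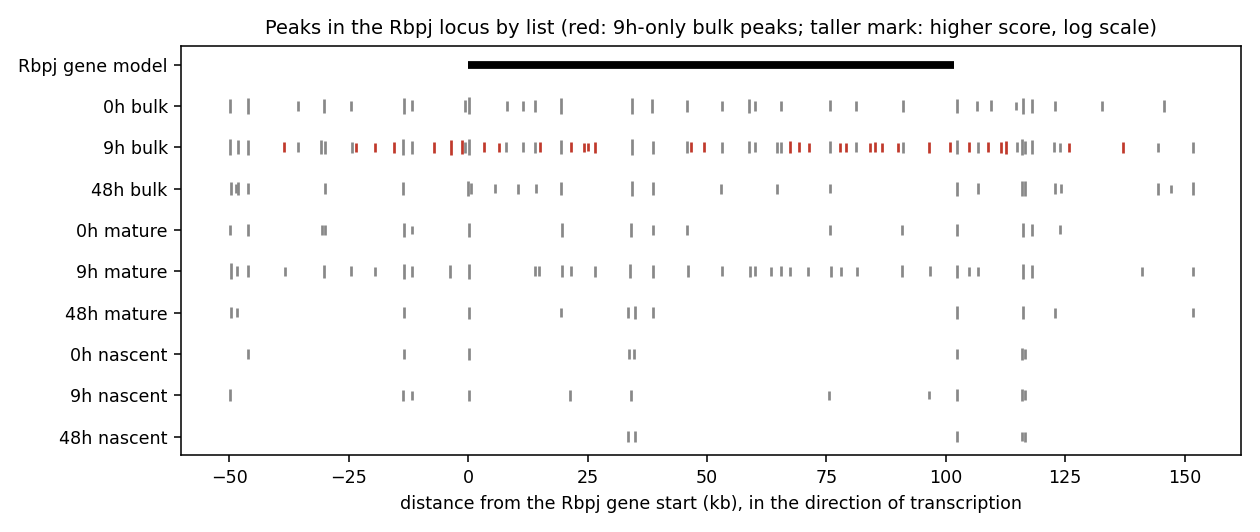
Bulk, mature and nascent peaks of ES cells along the Rbpj locus, by distance in kb from the gene start. Each mark is the centre of a peak, and a taller mark has a higher score; red marks are the 33 9h-only sites, which add to the 36 other 9h bulk peaks, while the 0h and 48h bulk lists hold 32 and 26.

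No other gene had more than 22 sites. The median over the 21887 genes with 50 kb on each side was 1 site, 78 genes had 10 or more and 4 had 20 or more. Zfp423, a zinc-finger partner of several signalling pathways, had 22 (29.7% of its 9h peaks), Arhgap26 21, Pakap 20, Etl4 19, Pde4d 19, Cdh23 17, Fhit 17, Cdh13 16 and Smyd3 15. These are long genes, from 300244 bp for Zfp423 to 1611970 bp for Fhit. Rbpj, at 101667 bp, had 1.64 sites per 10 kb of its interval, Zfp423 0.550 and Fhit 0.0993. Each of these genes, Rbpj among them, had more mature peaks at 9h than at 0h or 48h. Zfp423 had 14, 47 and 27 at 0h, 9h and 48h, Arhgap26 27, 67 and 48, and Smyd3 38, 42 and 17. The genes were picked for their 9h-only sites, and the whole 9h mature list is the longest (94946 peaks against 66518 and 75941). Among windows of 200 kb, 44 of 11638 held 10 or more sites. After those of Rbpj, 2 windows were tied at 14 sites, each with a 9h mature peak at 6 of them. One holds the gene of Sox4, a SOX-family transcription factor (chr13:28800001-29000000), with 14 of 28 bulk peaks. In the other (chr13:97200001-97400000), with 14 of 53, the gene nearest to the largest number of sites was Enc1.

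Genes of the pathways at work in the conversion were next compared as groups. Over all protein-coding genes, 11.1% of the 9h bulk peaks within 50 kb of the nearest gene were 9h-only, and the plot of the gene lists shows values on both sides of it. The naive pluripotency list had 35 of 330 peaks (10.6%), 10 of them with a 9h mature peak. At Tbx3, a site 18439 bp from the gene (chr5:119703163-119703333) scored 705 with no mature peak. At Esrrb, a site inside the gene (chr12:86451901-86452227) scored 535 with a 9h mature score of 238, whereas another (chr12:86344272-86344422) had mature scores of 179 at 0h and 125 at 9h. General pluripotency genes had 7 of 113 peaks (6.19%), with 0 at Pou5f1.

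The formative and EpiLC list had 34 of 315 peaks (10.8%), and 16 of the 34 had a 9h mature peak. Otx2, the homeobox factor of the formative state, had a site 2830 bp from the gene (chr14:48653672-48653951) with a bulk score of 472, a 9h mature score of 598 and no mature peak at 0h or 48h. That mature peak also covered a 0h or 48h bulk peak 610 bp from the site. Sox4 had 6 of 14 peaks, 4 with a 9h mature peak. Of these, chr13:28973669-28974164 scored 407 in bulk and 180 in mature chromatin, and chr13:28923175-28923452 scored 322 and 197. Grhl2, an epithelial enhancer factor, had 6 of 36 and Foxp1 5 of 44. Fgf5 and Foxd3 had 0.

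The FGF and ERK list had 38 of 323 peaks (11.8%, 9 with a 9h mature peak), among them a site near the feedback inhibitor Spry4 (chr18:38577436-38577712, bulk score 460, no mature peak) and one near Myc (chr15:62009751-62010075, 454 and 70). The Activin and Nodal list had 9 of 173 (5.20%) and 0 of the 9 had a 9h mature peak. The LIF and STAT3 list had 14 of 141 (9.93%), with 4 at Pim1, each with a 9h mature peak. WNT and beta-catenin targets had 33 of 269 (12.3%), with 6 at Axin2, none of which had a 9h mature peak. AP-1 and immediate early genes had 10 of 128 (7.81%), led by a site near Ccn1 (chr3:145661760-145662361, 811 and 163). YAP and TEAD genes had 32 of 216 (14.8%), 4 with a 9h mature peak. Vgll4, a TEAD cofactor, had the strongest of these inside the gene (chr6:114954569-114954813, 1187 and 221), and Amotl2 had 6 of 20 peaks. Adhesion and matrix genes had 37 of 296 (12.5%), DNA methylation genes 14 of 134 (10.4%) with 6 at Tet1, ubiquitous genes 9 of 119 (7.56%), and 2-cell-like genes 0 of 10, which is too few peaks to read.

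**Figure D3:**
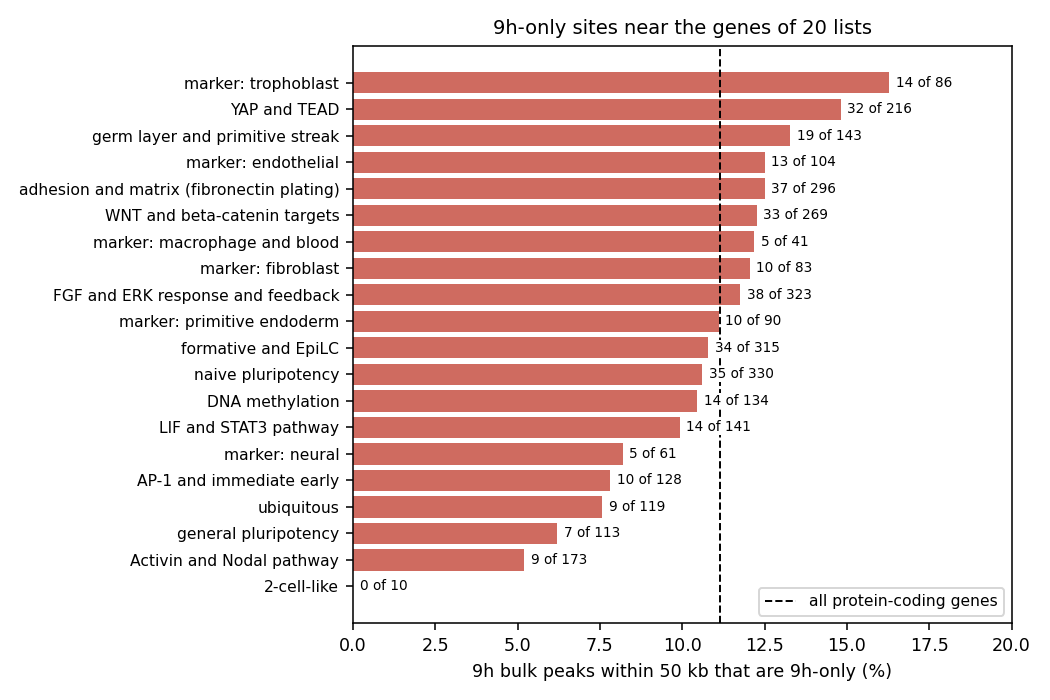
Share (%) of the 9h bulk peaks within 50 kb of the genes of 20 lists that were 9h-only, with the numbers of sites and peaks beside each bar. The dashed line is the share over all protein-coding genes, 11.1%; no error is drawn, and the lists run from 0 of 10 peaks to 14 of 86.

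Markers of other lineages held sites as well. The germ layer and primitive streak list had 19 of 143 peaks (13.3%), 9 with a 9h mature peak. Hand1, a basic helix-loop-helix factor of trophoblast and mesoderm, had 5 of 15, and the strongest (chr11:57850823-57851395) scored 1089 in bulk and 372 in 9h mature chromatin and was in all 6 MEF bulk lists. Eomes, a T-box factor of trophoblast and the streak, had 5 of 14. Its strongest (chr9:118488794-118489227) scored 702, with mature scores of 372 at 0h and 676 at 9h, so its mature peaks were not confined to 9h. T, the T-box factor Brachyury, had a site 1726 bp away (chr17:8444222-8444391) scoring 231, with a 9h mature score of 91. The marker lists gave 14 of 86 for trophoblast (16.3%, including the Hand1 and Eomes sites), 10 of 83 for fibroblast (12.0%), 10 of 90 for primitive endoderm (11.1%), 13 of 104 for endothelium (12.5%), 5 of 61 for neural cells (8.20%) and 5 of 41 for macrophage and blood (12.2%). In the 9h bulk list, a peak within 1 kb of a gene end was present for 4 of 4 pluripotent, 4 of 4 formative and 4 of 5 naive markers. It was present for 7 of 14 fibroblast, 6 of 9 primitive endoderm, 7 of 8 trophoblast, 8 of 8 neural, 2 of 8 macrophage and blood and 7 of 8 endothelial markers. The fibroblast genes without one included Col3a1, Dcn, Lum and Postn. An open gene end does not show expression, and the part of other cells in the sites was not tested.

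Some sites were open in another cell type. Of the 17626, 4243 (24.1%) overlapped a peak in at least 1 of 6 bulk lists of reprogramming MEF, and 1921 (10.9%) did so in all 6. By time, the share was 15.2% at 6h (14.7 to 15.7%), 20.3% at 12h (19.7 to 20.9%) and 16.2% at 36h (15.7 to 16.8%), and the 12h list was also the longest of these 3, with 199056 peaks. At kept 9h peaks the 12h share was 53.9%, at peaks lost after 9h 25.5%, and at peaks gained by 9h and kept 23.0%. Among peaks scoring 500 or more, it was 37.9% at the sites, 36.0% and 35.7% at the gained and the lost peaks, and 68.1% at kept peaks. In the 60h fractions the sites were found at 8.11%, 7.45%, 8.39% and 6.13% in Q1, Q2, Q3 and Q4, and 5.20% were in all 4. The mature MEF lists held 1.06%, 6.93% and 3.71% at 6h, 12h and 36h, and the nascent lists 0.221%, 1.81% and 0.823%. The plot of MEF lists shows the sites below kept peaks in every list.

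The 3570 sites with a 12h MEF peak had a median 9h score of 126.5, against 106.5 for all the sites. Within the 12h MEF list their median score was 683 against 595 for the whole list, and 1906 of them (53.4%) were at or above that list's median. Scores of the ES and MEF lists are given side by side below and are not compared. The highest 12h MEF scores, in a choice made after the values were seen, were led by a site inside Nedd4l, a ubiquitin ligase gene (chr18:64999298-64999481), at 86 in ES cells and 14075 in MEF at 12h. Next came a site 22995 bp from Coro2b, an actin-binding coronin (chr9:62560039-62560261). It scored 85 at 9h in ES cells, with no mature peak, and 13815 in MEF at 12h. A site inside Snx9, an endocytic sorting nexin (chr17:5846173-5846472), scored 554 in ES cells with a mature score of 169, and 12585 in MEF. One inside Heatr5a (chr12:51947521-51947831) scored 150 with a mature score of 57, and 12549 in MEF. One inside Rbks, the ribokinase gene (chr5:31630146-31630542), scored 587 with a mature score of 263, and 11906 in MEF. In contrast, 3334 sites (18.9%) had a 9h mature peak and were in no list of the MEF time course or the 60h fractions. That share was 18.9% in peaks gained by 9h and kept, 30.3% in peaks lost after 9h and 26.3% in kept peaks. In none of the other 24 lists of the ES and MEF time courses and the fractions were 9769 sites (55.4%). That count does not take in the lists of the aphidicolin experiment. Peaks of the other classes are in another list by definition.

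**Figure D4:**
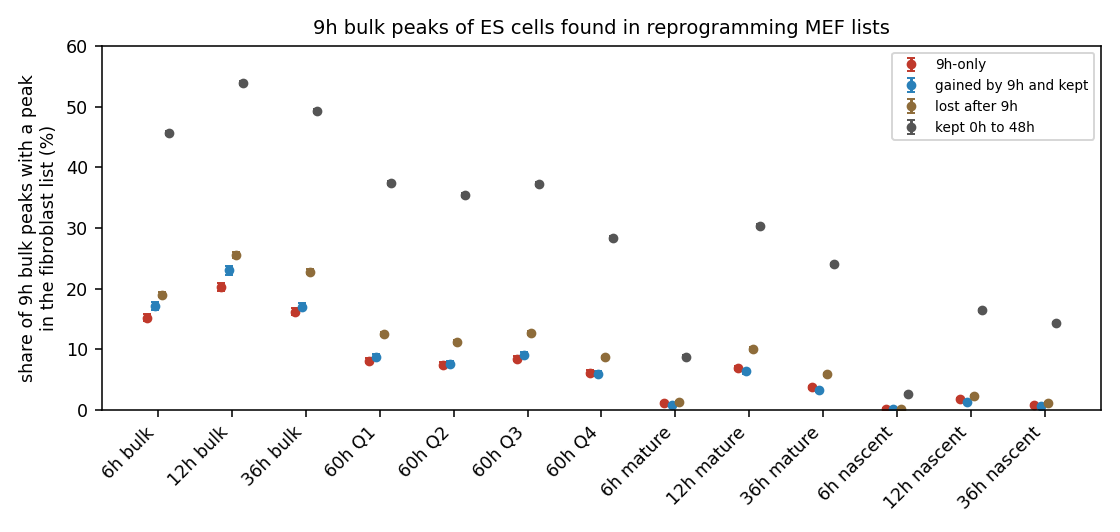
Share (%) of 9h bulk peaks of ES cells that overlapped a peak of each reprogramming MEF list, for 4 classes of 9h bulk peak. Points are shares and bars Wilson 95% intervals (counting error only); the 9h-only sites lie between 0.221% and 20.3% and under the kept peaks in each list.

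The aphidicolin experiment is the only one with replicated counts, and it was run in MEF. Aphidicolin stops replicative DNA polymerases. The comparison asks how openness differs in reprogramming fibroblasts when DNA copying is blocked for 10 h, starting 4 h after induction. In the peak lists of single samples, the sites were found in 13.3%, 13.7% and 12.9% untreated and in 15.0%, 17.1% and 16.4% with aphidicolin. The groups did not overlap. The means were 13.3% ± 0.378 and 16.2% ± 1.10 (SD, n = 3 each), with a two-sided exact permutation p = 0.1, the smallest p that 3 against 3 samples allow. All 9h bulk peaks moved the same way, from 33.4% ± 1.13 to 37.7% ± 1.46 (SD, n = 3 each), and the lists themselves were longer, at 124481 ± 6659 against 156855 ± 7931 peaks.

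In the deposited counts, 2495 sites (14.2%) overlapped 2502 of the counted regions, all of which passed the filter on low counts. Library totals ran from 41183769 to 49440524 untreated and from 55158844 to 78677381 with aphidicolin. With edgeR's quasi-likelihood test and Benjamini-Hochberg adjustment over 138996 regions, 292 of the 2502 (11.7%) were higher after aphidicolin and 558 (22.3%) were lower, at an adjusted p under 0.05. Leaving out 1 library moved these counts by over 1.5 times in some cases. Without aphidicolin library b, 177 were higher and 350 lower, beside 15282 and 15185 over all regions. Without aphidicolin library c, 184 were higher, beside 16040 over all regions. Without untreated library b, 359 were lower, beside 16890 over all regions. With every library, 25061 of all regions were higher and 24874 lower. Over all regions tested, 18.03% were higher and 17.90% lower (35.93% called in either direction). Their median log2 fold change was -0.06, against 0.02 over all regions. Scaling by library totals in place of TMM moved the median of all regions to 0.18 and that of the 2502 to 0.10. The split of the 2502 turned to 563 higher and 234 lower, and that of all regions to 42149 and 11101. The lower median of the 2502 relative to all regions was there under both scalings. Regions with another 9h bulk peak had 6.88% higher and 31.1% lower, and regions with no 9h bulk peak had 25.2% and 9.49%, so the 2502 lay between them.

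The calls followed the strength of the region. In the lowest quartile of regions by mean log2 CPM, 16.3% of the 9h-only regions were higher and 8.53% lower, against 28.1% and 3.89% of all regions. In the highest quartile, 3.84% were higher and 47.8% lower, against 4.09% and 47.2%. The plot of aphidicolin calls by strength shows both directions in each quartile.

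**Figure D5:**
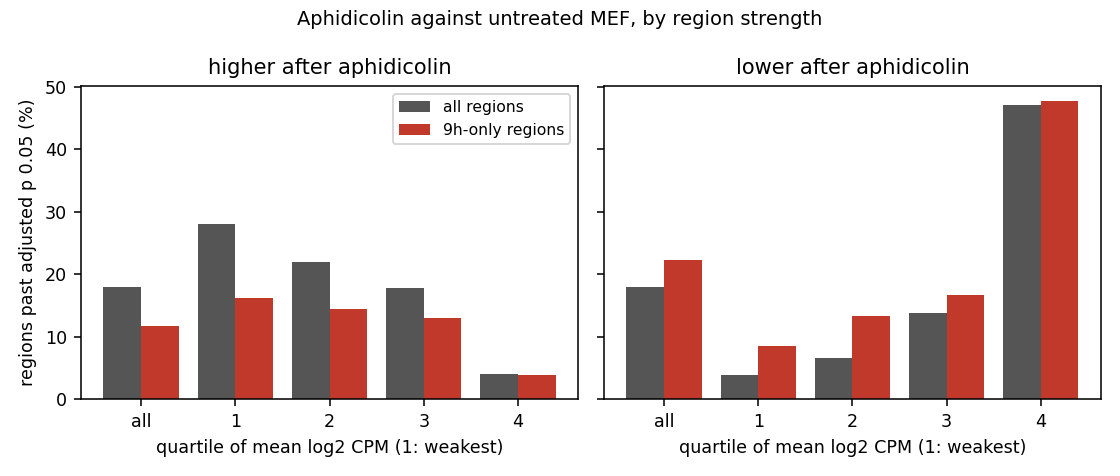
Share (%) of counted MEF regions called higher (left) or lower (right) after aphidicolin at an adjusted p under 0.05 (edgeR), for all regions and in quartiles of mean log2 CPM. Bars start at 0; grey is all 138996 regions and red the 2502 that overlap a 9h-only site, which reach 47.8% lower in the strongest quartile against 47.2%.

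Among regions at the sites that were called, above the median strength and with groups that did not overlap, the largest fall was at a region 126541 bp from Adcy8, an adenylyl cyclase gene (chr15:64572169-64572494). Its log2 CPM was 3.09, 3.35 and 3.27 untreated and between 2.25 and 2.35 in the 3 libraries with aphidicolin. Each treated library was below each untreated one, with a log2 fold change of -0.95 ± 0.10 (SE; edgeR adjusted p = 2.79e-05). A region inside Impdh1, which encodes the enzyme that commits purines to guanine nucleotide synthesis (chr6:29204155-29204533), had 3.21, 2.84 and 2.98 untreated and 2.10, 2.29 and 2.07 with aphidicolin. Its log2 fold change was -0.86 ± 0.11 (SE; edgeR adjusted p = 8.61e-05). The other named falls were inside Trappc3 (-0.87), 12470 bp from Tns4 (-0.84) and 17845 bp from Nrf1 (-0.80), all edgeR adjusted p 0.000191 or below.

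The largest rise was at a region inside Rnf217, a ubiquitin ligase gene (chr10:31503977-31504531). Its log2 CPM was 2.67, 2.95 and 3.10 untreated and 3.71, 3.63 and 3.62 with aphidicolin. The groups did not overlap, and the log2 fold change was 0.74 ± 0.10 (SE; edgeR adjusted p = 0.000111). A region inside Fhit, a long gene known for a common fragile site (chr14:10174624-10175154), had 1.20, 2.00 and 2.09 untreated and 2.53, 2.43 and 2.61 with aphidicolin. The untreated libraries differed among themselves by more than in the other named regions, and the log2 fold change was 0.72 ± 0.16 (SE; edgeR adjusted p = 0.00252). The others were inside Tmeff2 (0.71), 52410 bp from Glul (0.71) and inside Thrb (0.65). At Rbpj, a region 6996 bp from the gene (chr5:53548572-53548783) had a log2 fold change of -0.40 ± 0.15 (SE; edgeR adjusted p = 0.0448), and the other 4 nearest to Rbpj were not called.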

How the data were processed

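Chromatin accessibility was measured in 81 samples in 27 groups of 3. Reads were processed with MACS2 2.2.0, Bowtie2 2.2.5, cutadapt 2.2.0, bedtools 2.26.0, bcl2fastq 2.19.1 and SAMtools 1.4.1 and the build mm10, per the submitters' processing notes. Parameters, any transposase shift of reads and the pooling of replicates in the ES lists are not given in the sources used here. ES cells were labelled 129/Ola, so reads of another strain than the reference were mapped. The score of each peak is the authors' deposited peak caller score, with a scale that is not stated; it served only for ranks and thresholds inside 1 list. The read depth behind the ES and time-course lists is unknown. The bulk lists of the MEF nascent arm were assigned by name and by elimination.

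For 6 libraries, the authors deposited unnormalized read counts in 139000 regions. Their column numbers could not be tied to samples; letters a to c name the libraries. Counts of any pair of libraries in a group differed beyond sampling noise (lowest chi-square over its degrees of freedom, 1.88). The labels do not say whether replicates are separate cultures, so p-values cover the spread of these samples alone, possibly technical.

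Overlaps of at least 1 bp were computed with Python 3.11.15 and checked against bedtools 2.31.1. Shares have Wilson 95% intervals, which cover counting error only. Counts were tested with edgeR 4.0.16 in R 4.3.3 (glmQLFit and glmQLFTest, TMM, filterByExpr defaults, Benjamini-Hochberg over all regions, threshold 0.05), checked on simulated data. A region counts as 9h-only where it overlaps a site. Genes are protein-coding genes of RefSeq GRCm38.p6; each site was given the nearest, and a locus adds 50 kb to both ends of a gene. With no genome at hand, sequences and motifs cover only RefSeq promoter windows.

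The sites, the 20 gene lists (248 of 249 entries found) and the tests were chosen with earlier results of these data known. Sites named are the 10 with the highest 9h bulk score, the 10 with the highest 9h mature score and no 0h or 48h mature peak, the 10 with the highest 9h nascent score, up to 3 per gene list, the 10 genes with most sites, and the 5 regions per direction with the largest fold among called regions with separated groups and a mean log2 CPM over the median; only some of these are described. Alternatives are member definitions, overlap rules, normalizations, tools, left-out libraries and a replicate block. DESeq2 1.42.0 was such an alternative.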

Additional observations from a re-analysis of the deposited data

How the results depend on the processing

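The number of sites was 15004 without those within 500 bp of a 0h or 48h bulk peak, 15837 at scores of at least 50, 20991 where a shared peak had to cover 50% or more of the 9h peak, and 9391 at scores of at least 100. The order of the mature shares, with 9h above 0h and 48h, was the same in all 6 alternatives. Each of them keeps only sites with no 0h or 48h bulk peak, so the unchanged order is no separate support for the choice. At scores of at least 100, the shares were 2.37%, 36.7% and 3.50% with 0h, 9h and 48h mature peaks, 4.28% near gene ends and 17.6%, 23.8% and 19.5% in MEF at 6h, 12h and 36h. At scores of at least 50, the 9h mature share was 29.1% and the MEF shares at 12h and 36h 21.0% and 16.9%. Without sites within 500 bp, the 0h and 9h mature shares were 1.51% and 26.2% and the share near gene ends 4.08%, or 18.3% within 5 kb over all sites. Where the other peak had to cover 50% or more of the site, the mature shares were 1.36%, 24.8% and 2.30%, the 9h nascent share 0.391% and the MEF shares 12.4%, 17.3% and 14.1%. With mature lists at equal length, an alternative chosen after seeing the data, the 9h and 48h shares were 11.9% and 1.70%; with mature peaks outside all 0h and 48h bulk peaks, also added, the shares were 1.45%, 24.0% and 2.59%.

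For aphidicolin, library totals gave 563 regions higher and 234 lower in place of 292 and 558. Over all regions they gave 42149 and 11101 in place of 25061 and 24874, with a median log2 fold change of 0.18 in place of 0.02. In the main fit, regions covered 50% or more by a site gave 186 and 367 of 1730. Leaving out each library in turn gave 177 to 387 higher and 350 to 590 lower. Over all regions these fits gave 15282 to 29925 higher and 15185 to 28012 lower. Without untreated b 359 were lower, without aphidicolin b 177 were higher and 350 lower, and without aphidicolin c 184 were higher. DESeq2 gave 235 and 512 (19849 and 23359 over all regions), and its size factors in edgeR 281 and 581 (24141 and 26335 over all regions). Fits added after seeing the data gave 226 and 391 with offsets that follow region strength, and 244 and 350 with only regions that have a peak in all 6 lists. Deviations of same-numbered libraries correlated at 0.26 (a), 0.01 (b) and 0.15 (c). Libraries a and c correlated best with their own number in both groups, and b did not. Whether the numbers pair the libraries is therefore undecided. A replicate block by that number gave 358 higher and 650 lower, beside 30014 and 30446 over all regions. The cause of these differences was not tested. With 1 list per group and unknown depth, a site absent from the 0h or 48h list was not detected there, which is not the same as closed.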

Other observations

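Sites also touched 4 annotated microRNA hairpins. These were Mir344b (site chr7:61790435-61790786, bulk score 208), Mir6386 (chr9:92267255-92267546, 110), Mir7018 (chr4:137538198-137538392, 92, with a 9h mature score of 53) and Mir802 (chr16:93369610-93369755, 53). A site with a bulk score of 1016 and a 9h mature score of 529 lay 592 bp from Mir1198 on chromosome X (chrX:7805864-7806508), and one with a score of 478 and no mature peak lay 437 bp from Mir103-1 (chr11:35782919-35783260).

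Of single sites at endothelial and blood genes, whose list shares are given above, a few are described here. Kdr, the VEGF receptor gene, had a site 29711 bp away (chr5:75902894-75903116) with a bulk score of 690 and no mature peak. Pecam1, an adhesion molecule of endothelium that ES cells also carry, had 4 sites, of which 3 had a 9h mature peak; the highest (chr11:106636017-106636355) scored 645 in bulk and 362 in mature chromatin. Inside Csf1r, the receptor of macrophage growth factor, a site (chr18:61106836-61107074) scored 157 in ES cells and 5167, 9007 and 6506 in MEF bulk chromatin at 6h, 12h and 36h.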
